A study of Mus musculus with 2 samples.

Results

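The TRAV3, TRAV4, TRAV5, TRAV8 and TRAV10 families are 5 groups of V genes of the T-cell receptor α (TCRα) chain that each took a small or middling part of the repertoire of iT cells, the T cells regenerated from engineered embryonic stem cells. Their members were the TCRα clonotypes, that is the distinct rearranged sequences with a TRAJ gene as first J hit, whose first-listed V gene belonged to family 3, 4, 5, 8 or 10, with the copies named D, N or DV included. They made up 1291 of 6089 TCRα clonotypes in the thymus library and 1974 of 9583 in the spleen library, 3265 in all. The constant gene TRAC was assigned to 1286 and 1958 of them and no other constant gene was. Both libraries came from iT cells of *iR9*-ESC origin, a C57BL/6 (CD45.2) embryonic stem cell line in which a doxycycline-inducible *Runx1-p2a-Hoxa9* cassette sits in the *Rosa26* locus. Blood progenitors made from these cells in culture with doxycycline were given to irradiated, immunodeficient B-NDG mice (CD45.1). T cells were taken at week 6 after transplantation. The study's results describe 8-week-old recipients and transplantation without doxycycline, while its methods give an age range that starts at 8 weeks. Its supplement also describes recipients fed doxycycline, and whether the mice sequenced here received it is not stated. From each tissue 15000 CD4 or CD8 single-positive cells were sorted, and TCR transcripts were amplified with a mouse TCRα/β profiling kit. The study's text calls the cells of both tissues naïve, but the gates it lists give CD62L+ CD44- for the spleen only, and lineage markers and exclusion of TCRγδ for the thymus, so whether this choice differed is not clear, and any difference in gate cannot be told apart from tissue. How many animals gave each sample is not stated in the sources used here. The donor cells carry 1 engineered line in both tissues, and no library of natural T cells was sequenced beside them.

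A TCRα gene is assembled in the thymus by joining 1 of many V segments to 1 of many J segments, with trimming of both ends and addition of nucleotides between them. The joint encodes CDR3, the loop that contacts the antigenic peptide. The locus may rearrange repeatedly on the same chromosome, and each new joint uses a V segment farther upstream and a J segment farther downstream than the joint it replaces, so V segments near the J cluster are known for early joints to 5′ TRAJ segments and distant ones for later joints to 3′ segments. In C57BL/6 mice the V region holds large internal duplications, and most families studied here have copies in several of them: an original gene, a D copy and an N copy. A joint out of frame, or with a stop codon, is non-productive and can be carried on the second allele of a T cell.

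All 34 annotated V genes of the 5 families lie on the plus strand of chromosome 14 in GRCm38, and 30 of them were listed for at least 1 clonotype. The ends of the V genes are shown because the families differ there in what they bring to CDR3. The 3′ ends of representative genes, read from GENCODE transcripts, are given 5′ to 3′ with the bases that belong to CDR3 in capitals.
TRAV3-1: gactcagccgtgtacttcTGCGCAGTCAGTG
TRAV4-4-DV10: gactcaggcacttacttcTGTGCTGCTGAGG
TRAV4-2: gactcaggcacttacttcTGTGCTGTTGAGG
TRAV5-4: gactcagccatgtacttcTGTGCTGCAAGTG
TRAV5-1: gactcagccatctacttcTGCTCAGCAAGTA
TRAV8-1: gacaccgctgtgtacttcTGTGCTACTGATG
TRAV8D-2: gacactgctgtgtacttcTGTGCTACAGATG
TRAV10: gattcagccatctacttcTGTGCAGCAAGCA
The CDR3 part was the same in 3 of 3 TRAV10 genes, in 6 TRAV4 genes and in 3 TRAV5 genes, so within these groups the V gene was told apart only by sequence outside CDR3. For TRAV3-3, TRAV3D-3 and TRAV3N-3 the GENCODE transcripts end 9 bases into CDR3, whereas untrimmed clonotypes in the deposited tables carry 13 V-encoded bases. The D and N copies of TRAV3-3, TRAV4-3, TRAV4-4 and TRAV5-4 are so alike that every clonotype listed under TRAV3D-3, TRAV4D-3, TRAV4D-4 or TRAV5D-4 had the N copy tied at the top score. Such pairs are given as 1 unit where their levels and joints are described, while comparisons over single V genes and the plot by position keep the names as listed. Ties touched 29.3% of the members in thymus and 34.3% in spleen, but a gene of another family was tied in 0 and 1 clonotypes.

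The 5 families together took similar shares of the repertoire in both tissues, and the order of the tissues differed between the families. They held 21.2% of TCRα clonotypes in thymus (95% Wilson interval, 20.2% to 22.2%) and 20.6% in spleen (19.8% to 21.4%), and 18.05% and 18.46% of the 918063 and 1820314 TCRα reads. TRAV3 was the family with the higher spleen share: it held 350 clonotypes, or 5.75% (5.19% to 6.36%), in thymus and 719, or 7.50% (6.99% to 8.05%), in spleen. TRAV4 showed the opposite order, with 392 clonotypes, 6.44% (5.85% to 7.08%), in thymus and 434, 4.53% (4.13% to 4.96%), in spleen. The intervals of the other families overlapped between tissues. TRAV5 held 219 and 350 clonotypes (3.60% and 3.65%), TRAV8 179 and 273 (2.94% and 2.85%), and TRAV10 151 and 198 (2.48% and 2.07%). Among the TRAV families with any clonotype, TRAV3 ranked 8 of 21 in thymus and 6 of 22 in spleen, and TRAV10 ranked 12 and 13. The intervals cover counting error only, since no molecular identifiers were stated and there was 1 library per tissue, so no difference between the tissues has a replicate check.

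Read shares did not follow clonotype shares in every family, and a share of reads cannot tell more cells from more transcripts per cell. TRAV3 took 4.10% of TCRα reads in thymus and 7.28% in spleen, a spleen share 1.78 times the thymus share, whereas TRAV8 took 4.02% and 2.74% (0.68 times) and TRAV10 2.92% and 1.84% (0.63 times). The TRAV8 order rested on 1 non-productive clonotype: with this joint of TRAV8D-2 to TRAJ31 left out, the family held 2.16% of reads in thymus and 2.47% in spleen. TRAV4 took 3.99% and 3.38% of reads, and TRAV5 3.02% and 3.23%. How evenly reads were spread was measured by the effective number, that is e raised to the Shannon entropy of a family's read shares. In thymus it was 234 for TRAV3, 269 for TRAV4, 152 for TRAV5 and 102 for TRAV10, but 22.6 for TRAV8, whose most abundant clonotype alone held 47.4% of its reads. In spleen it was 370, 178, 222, 70.6 and 115 for TRAV3, TRAV4, TRAV5, TRAV8 and TRAV10. TRAV4 was the single family with a lower effective number in spleen than in thymus although it had more clonotypes there, and its leading clonotype held 10.5% of its spleen reads.

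**Figure D1:**
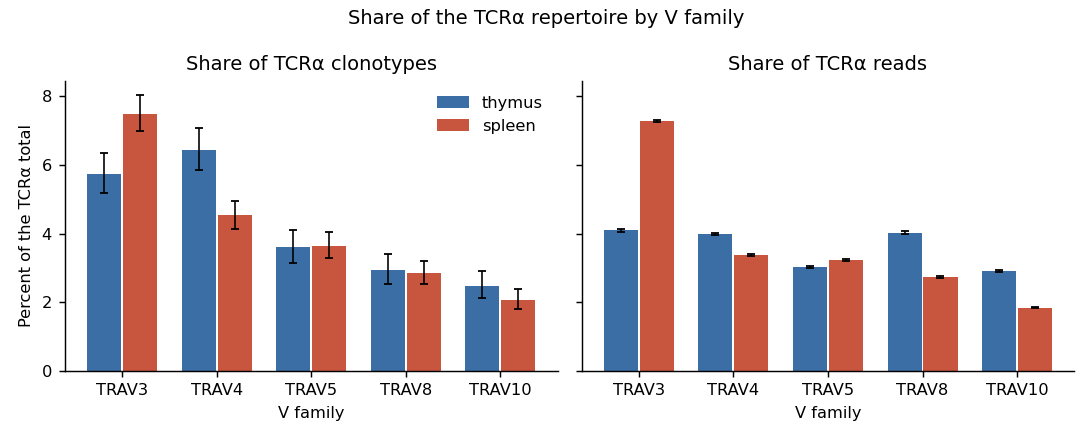
Percent of TCRα clonotypes (left) and of TCRα reads (right) held by each V family in the thymus and spleen libraries, with Wilson 95% intervals for counting error. TRAV3 is the family with the highest spleen bars, at 7.50% of clonotypes and 7.28% of reads, and TRAV8 in thymus has a larger share of reads (4.02%) than of clonotypes (2.94%).

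Single V genes were compared between the tissues by size alone. Of 104 TRAV genes with at least 20 clonotypes in both libraries together, 15.4% had a clonotype share at least 1.5 times higher in spleen and 13.5% one at least 1.5 times lower. Of the 23 such genes in the 5 families, 3 were higher (TRAV3-4, TRAV3D-3 and TRAV8D-2) and 5 were lower (TRAV4-2, TRAV4-3, TRAV4-4-DV10, TRAV4D-2 and TRAV8-1), of 23 in each case. With clonotypes of 1 read left out, or with equal TCRα reads in both libraries, the number of lower members was 3. The share over all TRAV genes was not recomputed in these settings. All genes of TRAV4 without a D or N letter were among the lower ones. TRAV4-3 had 99 thymus and 103 spleen clonotypes, 1.63% and 1.07%, and TRAV4-4-DV10 had 63 and 66, 1.03% and 0.689%. By reads, 28.8% of the 104 genes were at least 1.5 times higher in spleen and 19.2% lower. The thymus clonotype with 98095 reads lowers the thymus read share of every gene but its own. The members had 5 higher (TRAV3-4, TRAV3D-3, TRAV3N-3, TRAV4N-4 and TRAV8-2) and 6 lower (TRAV10, TRAV4-2, TRAV4-4-DV10, TRAV4D-2, TRAV5-1 and TRAV8D-2). TRAV8-2 had only 74 thymus and 575 spleen reads. TRAV8D-2 was among the lower ones through 1 clonotype, since without its joint to TRAJ31 it had 646 thymus and 4316 spleen reads, a spleen share 3.31 times the thymus share. With each tied D and N pair taken as 1 unit, a choice made after the values were seen, 21 units remained. Of these, 2 were higher and 5 lower by clonotypes, and 3 higher and 6 lower by reads. The share over all TRAV genes was not computed with pairs as units, so these counts have no background. The TRAV3D-3/TRAV3N-3 pair was then just under the limit by clonotypes, at 1.49 times, and past it by reads, at 2.08 times, whereas TRAV4D-4/TRAV4N-4 was not past it by reads (1.04% and 1.48%, 1.42 times). Another 7 V genes had too few clonotypes for this comparison, 28 clonotypes together.

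The higher TRAV3 share in spleen lay mainly in the TRAV3D-3/TRAV3N-3 pair. This pair held 225 clonotypes and 25448 reads in thymus (3.70% and 2.77%) and 527 clonotypes and 105144 reads in spleen (5.50% and 5.78%). TRAV3-3, the original copy nearer to the J segments, held 108 and 143 clonotypes, 1.77% and 1.49%. The smaller members TRAV3-1 and TRAV3-4 held 11 and 5 clonotypes in thymus and 22 and 26 in spleen. Within the pair the listed copy went with the depth of the clonotype: those listed as TRAV3D-3 had a median of 55 reads in thymus and 92 in spleen, and those listed as TRAV3N-3 139 and 198. The split of the pair into D and N was therefore not used as a measure of either gene.

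The families differed in the part of the TRAJ cluster to which they were joined. The 5′ stretch was taken as TRAJ45 and upstream, and the share of a family's clonotypes joined to it was compared with that of all other TCRα clonotypes of the same library by Fisher's exact test, two-sided, with Benjamini-Hochberg adjustment over the 12 tests of the measure. By this exact test TRAV5 stood highest in both tissues, with 61 of 219 clonotypes (27.9%) in thymus against 14.5% of the others (adjusted p = 3.51e-06) and 97 of 350 (27.7%) in spleen against 14.4% (adjusted p = 3.65e-09). TRAV10 and TRAV8 were low in the exact test: in spleen 9 of 198 TRAV10 clonotypes (4.55%, adjusted p = 6.93e-05) and 23 of 273 TRAV8 clonotypes (8.42%, adjusted p = 0.0109) used the 5′ stretch. In thymus their shares were 9.27% and 9.50% and did not pass the exact test's threshold (adjusted p = 0.102 and 0.0964). TRAV4 was near the other clonotypes, at 17.3% and 15.9% (exact test, adjusted p = 0.165 and 0.436). TRAV3 lay below the others in thymus, with 35 of 350 clonotypes (10%, exact test, adjusted p = 0.0361), and above them in spleen, with 134 of 719 (18.6%, adjusted p = 0.00878). The 2 relations differed from each other by Zelen's exact test of equal odds ratios (adjusted p = 0.00214). The 5 families together differed from the others in spleen (16.8%, exact test, adjusted p = 0.0155) but the test was not passed in thymus (15.1%, adjusted p = 0.594). These tests count each clonotype once and take clonotypes as independent, and with 1 library per tissue they say nothing of the tissues. In all, 7 of 12 tests passed. Among productive clonotypes alone the exact test was not passed by TRAV3 in thymus (adjusted p = 0.187) or by the 5 families together in spleen (adjusted p = 0.0523), and with the stretch starting at TRAJ40 it was not passed by TRAV3 or the 5 families together in spleen (adjusted p = 0.361 and 0.754).

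The position of the V gene within the locus went with these joints too. The genes were grouped by their copy, a grouping chosen after the values were seen and therefore described without a test. The copies nearest the J segments, which carry no letter and lie from TRAV4-2 to TRAV3-4, 736 to 377 kb before the first TRAJ, joined the 5′ stretch in 155 of 567 clonotypes in thymus (27.3%, interval 23.8% to 31.1%) and in 177 of 744 in spleen (23.8%, 20.9% to 27.0%). The D and N copies did so in 38 of 669 (5.68%, 4.17% to 7.70%) and in 155 of 1155 (13.4%, 11.6% to 15.5%). TRAV3-1 and TRAV5-1, the 2 members at the far 5′ end, did so in 2 of 55 and in 0 of 75 clonotypes, which allows a spleen share of up to 4.87% by the Wilson bound. At the 3′ end of the J cluster (TRAJ23 and downstream) the order was the other way round, with 63.6% of thymus clonotypes of the far 5′ genes, 53.7% of the D and N copies and 21.9% of the J-proximal copies, and 66.7%, 49.0% and 20.7% in spleen. In the TRAV10 family the intervals of the copies overlapped at the 5′ stretch: the gene TRAV10 joined the 5′ stretch in 6 of 69 and 6 of 90 clonotypes (8.70% and 6.67%), and TRAV10D and TRAV10N together in 8 of 82 and 3 of 108. At the 3′ end they did not overlap in thymus, with 24.6% of the clonotypes of TRAV10 against 53.7% of those of TRAV10D and TRAV10N in thymus, but did in spleen, with 33.3% against 44.4%.

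Within the J-proximal group the share was mostly higher in genes nearer the J segments, with exceptions. TRAV4-2, which ends 736 kb before the first TRAJ (chr14:53418349-53418873), used the 5′ stretch in 1 of 40 thymus and 1 of 38 spleen clonotypes, and TRAV8-1 at 685 kb in 6 of 67 and 6 of 69. TRAV10 at 649 kb was no higher, with the shares given above. TRAV3-3 at 489 kb (chr14:53665929-53666506) reached 26.9% (29 of 108) and 21.0% (30 of 143). TRAV4-4-DV10 at 471 kb (chr14:53683647-53684177), a gene that can also serve the TCRδ chain, reached 44.4% (28 of 63) and 43.9% (29 of 66). TRAV5-4 at 450 kb (chr14:53704007-53704514) reached 53.4% (55 of 103) and 38.04% (70 of 184), and it held 55 of the 61 and 70 of the 97 TRAV5 joints to the 5′ stretch. The pseudogene TRAV8-2 at 416 kb had 61.5% of 13 thymus clonotypes but 30.4% of 23 in spleen, below TRAV4-4-DV10 and TRAV5-4. Its clonotypes had a median of 3 reads in thymus and 7 in spleen, near the floor. TRAV3-4, the member nearest the J segments at 377 kb (chr14:53776956-53777576), used it in 0 of 5 thymus and 14 of 26 spleen clonotypes. Over the V genes with at least 10 clonotypes, Spearman's rho between position and the 5′ share was 0.62 in thymus (22 genes) and 0.69 in spleen (23 genes), and 0.65 (76 genes) and 0.62 (80 genes) for the other TRAV genes. The points share their library and, for tied copies, their reads, so these are descriptions.

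**Figure D2:**
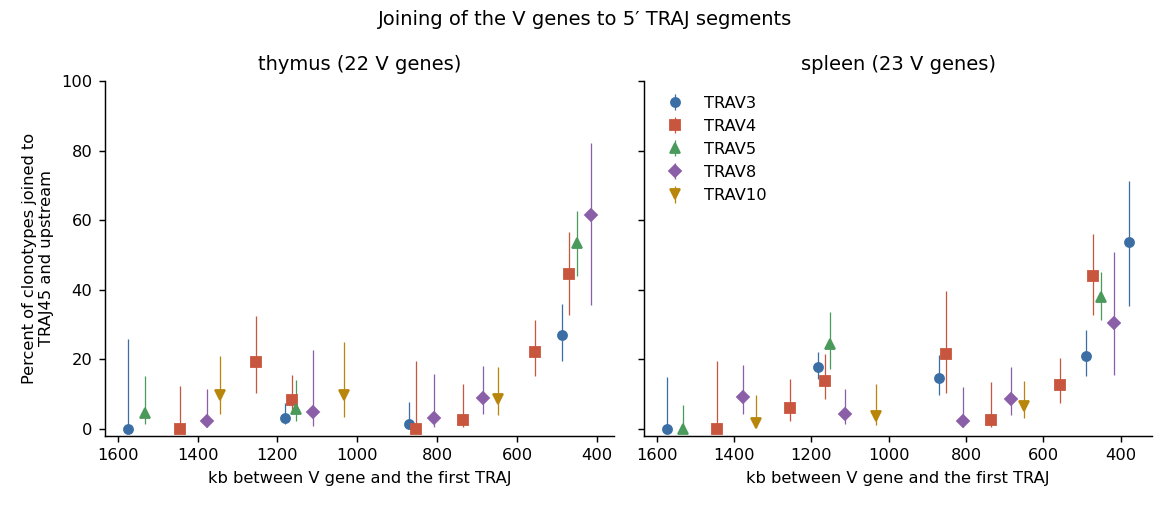
Percent of clonotypes of each V gene joined to TRAJ45 and upstream (vertical axis, with Wilson 95% intervals) against the distance in kb from the V gene to the first TRAJ segment, nearer genes to the right, for genes with at least 10 clonotypes in that library. In thymus every plotted gene of the 5 families at or beyond TRAV10 (649 kb) stays under 20%, while in spleen TRAV5D-4 (24.5%), TRAV4N-4 (21.4%) and TRAV3D-3 (17.8%) stand above the other distant genes of these families.

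The difference between the libraries in TRAV3 joints lay mainly in the TRAV3D-3/TRAV3N-3 pair. It used the 5′ stretch in 6 of 225 thymus clonotypes (2.67%, 1.23% to 5.69%) and in 89 of 527 spleen clonotypes (16.9%, 13.9% to 20.3%). TRAV3-3 had 26.9% and 21.0%, and TRAV3-4 had 0 of 5 and 14 of 26 clonotypes. The TRAV5D-4/TRAV5N-4 pair went from 4 of 71 (5.63%) to 27 of 110 (24.5%) in the same direction, and TRAV4D-4/TRAV4N-4 from 8 of 112 (7.14%) to 21 of 136 (15.4%) with overlapping intervals. The TRAV4D-3/TRAV4N-3 pair had the other order, 9 of 51 (17.6%) and 5 of 75 (6.67%). D and N copies of the remaining TRAV families had 8.38% of 2673 clonotypes in thymus and 9.09% of 4390 in spleen. Single genes among them differed as well, so the higher spleen share was not particular to the pairs: of 45 such genes with at least 10 clonotypes in each library, 23 were higher and 20 lower in spleen, and 3 were higher by at least 10 points. These were TRAV9N-4 (6.67% and 22.2%), TRAV6N-7 (6.58% and 20.9%) and TRAV7N-6 (4.21% and 14.8%), named after their values were seen. Lower in spleen by at least 10 points were TRAV9D-2 (23.5% and 4.26%), TRAV14N-2 (23.1% and 9.09%), TRAV13D-3 (20.8% and 10%) and TRAV7N-4 (12.8% and 2.02%). The 89 spleen joints of the TRAV3 pair were spread over TRAJ45 (39 clonotypes), TRAJ48 (18), TRAJ47 (17), TRAJ49 (14) and TRAJ53 (1), with 58 of them productive. In thymus none of the 225 clonotypes of the pair used TRAJ45.

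TRAV3 with TRAJ45 in spleen held 34 productive clonotypes that encoded 25 different CDR3 proteins. Of these, 4 clonotypes encoded 1 protein by 4 nucleotide sequences, shown with inserted nucleotides in capitals because they encode the same loop by different bases.
TRAV3N-3 with TRAJ45, 844 reads: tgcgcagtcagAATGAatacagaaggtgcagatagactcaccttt
TRAV3D-3 with TRAJ45, 350 reads: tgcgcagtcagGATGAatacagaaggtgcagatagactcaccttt
TRAV3N-3 with TRAJ45, 328 reads: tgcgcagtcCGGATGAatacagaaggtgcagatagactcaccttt
TRAV3D-3 with TRAJ45, 97 reads: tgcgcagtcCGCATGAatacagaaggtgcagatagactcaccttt
Each differed from its nearest neighbour among them in 1 base and their reads were within 10 times of each other, so the merging of 1-base neighbours at a 20-fold difference in reads left them apart. Whether they are separate joints or errors of copying or reading was not tested, and no molecular identifiers were stated. Over the whole family, 130 of 479 productive TRAV3 clonotypes in spleen (27.1%) encoded a protein that another TRAV3 clonotype also encoded, against 30 of 240 in thymus (12.5%). The share was 14.2% and 17.1% for TRAV4, 4.88% and 12.5% for TRAV5, 7.26% and 18.3% for TRAV8, and 11.2% and 2.70% for TRAV10, in thymus and spleen. Among the other TCRα clonotypes it was 541 of 3590 (15.1%) in thymus and 1230 of 5300 (23.2%) in spleen. A higher spleen share was therefore not particular to TRAV3. These shares grow with the number of clonotypes compared, which differed between families and tissues.

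The leading J partners were in part the same across families and in the other TCRα clonotypes. Those led with TRAJ31 (5.77% in thymus and 5.43% in spleen), followed by TRAJ23 (5.40% and 5.19%). TRAV3 used TRAJ23 most in both tissues, with 39 of 350 clonotypes (11.1%) in thymus and 50 of 719 (6.95%) in spleen, followed by TRAJ26 and TRAJ27 in thymus and by TRAJ45 (47 clonotypes) and TRAJ31 (42) in spleen. TRAV3 joints to TRAJ23 held 14.7% of the family's thymus reads and 17.97% of its spleen reads. TRAV4 led with TRAJ22 in thymus (30 of 392) and TRAJ23 in spleen (26 of 434). TRAV5 led with the 5′ segment TRAJ49 in both, with 16 of 219 clonotypes (7.31%) and 29 of 350 (8.29%). TRAV8 led with TRAJ12 in thymus (14 of 179) and TRAJ22 in spleen (16 of 273), and TRAV10 with TRAJ21 (12 of 151) and TRAJ31 (16 of 198). In every family the leading partners had overlapping intervals in both libraries, so their order is not resolved at this depth. Between 37 and 42 TRAJ genes were used by each family in thymus and between 40 and 45 in spleen.

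**Figure D3:**
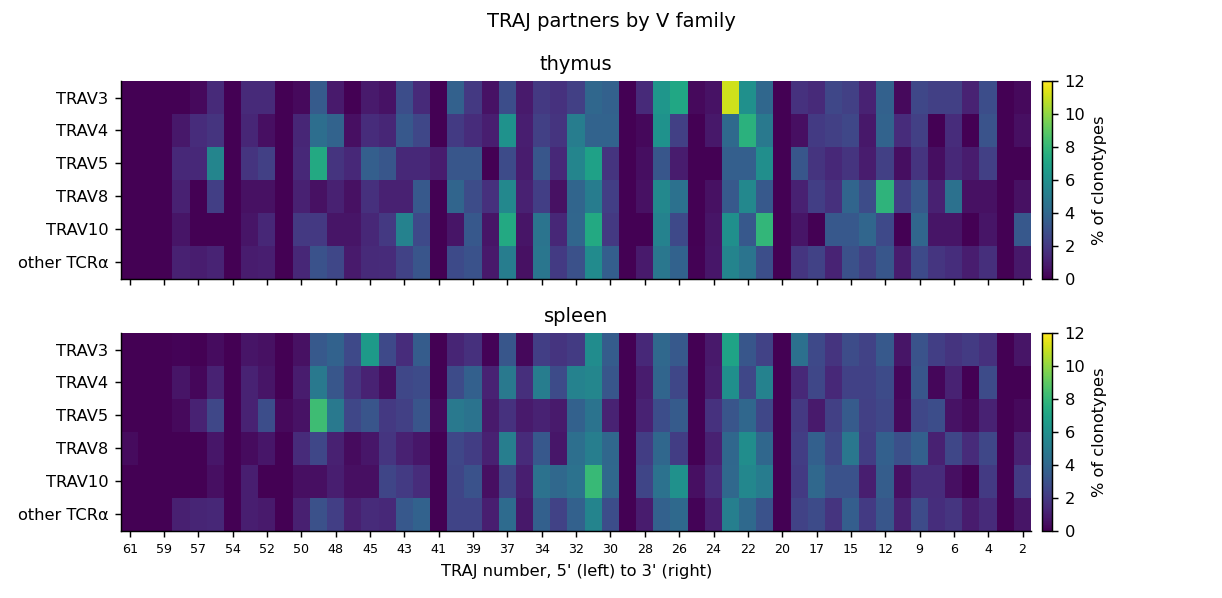
Percent of the clonotypes of each V family, and of the other TCRα clonotypes, joined to each TRAJ gene (columns, 5′ to 3′ from left to right) in thymus (top) and spleen (bottom). The brightest field is TRAJ23 of TRAV3 in thymus (11.1%), and TRAV10 is dark over the 5′ columns in spleen, where TRAJ45 and upstream held 4.55% of its clonotypes.

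A clonotype was taken as productive where its CDR3 kept the reading frame and held no stop. Of the 12 comparisons of the productive share by Fisher's exact test, 0 passed the adjusted threshold and 3 had an unadjusted p under 0.05. TRAV3 in thymus (240 of 350, 68.6% against 74.8%, p = 0.0111, adjusted p = 0.0667) and TRAV8 in spleen (169 of 273, 61.9% against 69.7%, p = 0.00744, adjusted p = 0.0667) were on the low side by this exact test, and TRAV10 in thymus (125 of 151, 82.8%, p = 0.0276, adjusted p = 0.110) on the high side. TRAV4 had 77.0% and 68.9% and TRAV5 74.9% and 73.1% in thymus and spleen. Most non-productive members were out of frame: 330 in thymus and 615 in spleen, with 6 and 8 that were in frame with a stop codon. The annotated pseudogenes were seen too. TRAV8-2, whose clonotypes had few reads, was productive in 3 of 13 and 7 of 23 clonotypes (23.1% and 30.4%). TRAV4D-2 was productive by its CDR3 in 17 of 27 and 7 of 16, and a productive CDR3 does not say that the rest of the gene is intact. Of the 30 V genes, 7 are annotated as pseudogenes.

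By reads, TRAV8 in thymus stood apart through 1 non-productive clonotype. Productive clonotypes held 40.02% of its thymus reads (39.5% to 40.5%) and 71.5% of its spleen reads, while the other TCRα clonotypes had 87.3% and 86.5%. The clonotype was a joint of TRAV8D-2 with TRAJ31 of 29 nucleotides, out of frame and with no inserted nucleotide, in which the V end had lost 3 bases and the J end 5.
TRAV8D-2 with TRAJ31, non-productive: tgtgctacagcaataacagaatcttcttt
It held 17499 reads in thymus, 1.91% of TCRα reads and rank 2 of all TCRα clonotypes, and 4949 reads in spleen, 0.272% and rank 13. Without it productive clonotypes held 76.0% of TRAV8 reads in thymus and 79.4% in spleen, and the 5 families held 16.5% and 18.2% of TCRα reads. The thymus clonotype of 98095 reads outside the 5 families stayed in that total and lowers the thymus share, so the order of these 2 shares is not resolved. TRAV10 was the family with the largest productive share of thymus reads, 92.2%, and TRAV5 of spleen reads, 88.0%.

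**Figure D4:**
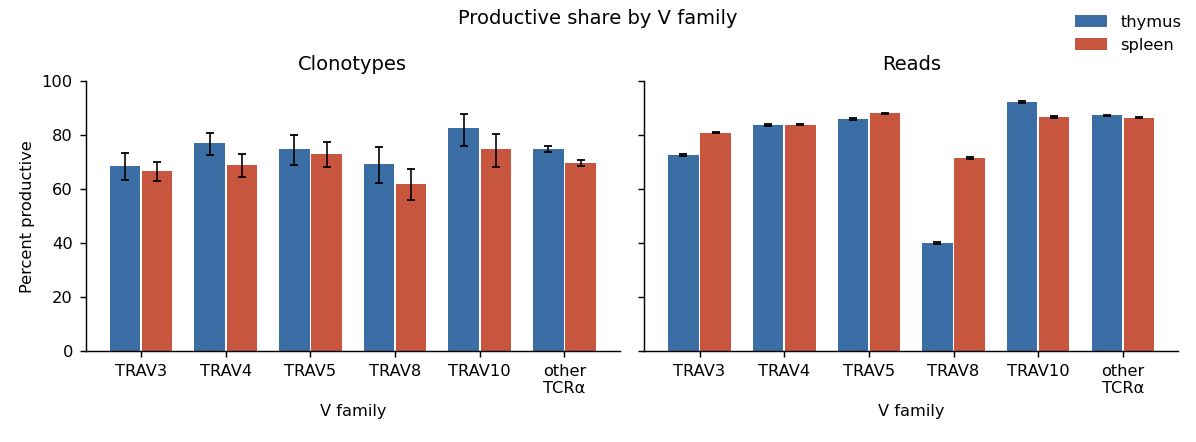
Percent of clonotypes (left) and of reads (right) that were productive in each V family and in the other TCRα clonotypes, with Wilson 95% intervals for counting error. Clonotype shares lie between 61.9% and 82.8%, while the read share of TRAV8 in thymus is 40.02% against 87.3% for the other TCRα clonotypes.

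The most abundant productive clonotypes were different in the tissues for 4 of 5 families. They are shown as CDR3 nucleotides, with inserted nucleotides in capitals and none in capitals where the aligned V and J ends left no gap. Bases aligned past a germline end are in lower case too.
TRAV3-3 with TRAJ23, thymus: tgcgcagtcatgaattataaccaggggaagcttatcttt
TRAV3N-3 with TRAJ23, spleen: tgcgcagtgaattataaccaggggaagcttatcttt
TRAV4-2 with TRAJ37, thymus: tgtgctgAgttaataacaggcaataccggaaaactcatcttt
TRAV4N-4 with TRAJ12, spleen: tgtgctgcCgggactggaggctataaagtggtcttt
TRAV5 with TRAJ22, both: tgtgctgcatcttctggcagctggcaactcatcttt
TRAV8D-1 with TRAJ12, thymus: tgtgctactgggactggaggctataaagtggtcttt
TRAV8D-1 with TRAJ11, spleen: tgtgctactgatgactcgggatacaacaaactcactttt
TRAV10N with TRAJ15, thymus: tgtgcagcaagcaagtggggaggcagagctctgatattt
TRAV10D with TRAJ21, spleen: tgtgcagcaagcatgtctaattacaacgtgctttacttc
The spleen clonotype of TRAV8D-1 with TRAJ11 was the most abundant productive member of all, with 10012 reads (0.550% of TCRα reads, 20.1% of TRAV8 reads), and the same CDR3 had 6 reads in thymus. That of TRAV4N-4 with TRAJ12 had 6447 reads in spleen and 116 in thymus, where it was listed as TRAV4D-4. TRAV3N-3 with TRAJ23 had 4608 reads in spleen and 0 in thymus, and TRAV10D with TRAJ21 had 2509 and 0, while 3 thymus reads would be 0.000327% of TCRα reads. In the other direction, TRAV10N with TRAJ15 had 1381 reads in thymus and 0 in spleen, TRAV8D-1 with TRAJ12 had 1031 and 0, and TRAV4-2 with TRAJ37 had 913 and 1. The thymus leader of TRAV3, TRAV3-3 with TRAJ23, had 612 reads in thymus and 391 in spleen, where it was listed as TRAV3N-3. The TRAV5 clonotype was likewise found at depth in both, with 583 reads in thymus as TRAV5D-4 and 2202 in spleen as TRAV5-4. Because the deposited tables hold each CDR3 once per library, its V name is the top-scoring one of all reads with that CDR3, and the same CDR3 can bear the name of a different copy in the other tissue. Whether reads were carried between the libraries was not tested.

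Few members were found in both tissues. A CDR3 nucleotide sequence present in both libraries was borne by 137 of 1291 thymus members (10.6%, 9.05% to 12.4%) and 128 of 1974 spleen members (6.48%, 5.48% to 7.66%), beside 11.7% and 7.52% of the other TCRα clonotypes. The family was the same in the other tissue for 115 of them, and the V and J genes for 66. TRAV8 had the smallest shared part, 10 of 179 (5.59%) and 8 of 273 (2.93%), yet these held 50.1% and 34.5% of its reads. Most of this lay in few clonotypes. The non-productive joint of TRAV8D-2 to TRAJ31 held 47.4% of TRAV8 reads in thymus and 9.93% in spleen. TRAV8D-1 with TRAJ11 held 20.1% in spleen but had 6 reads in thymus. TRAV10 had 24 of 151 (15.9%) and 16 of 198 (8.08%), but its family name was kept in only 10. Shared members had no inserted nucleotide in 61.3% of cases in thymus and 62.5% in spleen, against 29.7% and 44.7% of the members found in 1 tissue. The other TCRα clonotypes had the same order, with 57.9% against 28.6% in thymus and 59.1% against 42.9% in spleen. The most abundant shared clonotype of TRAV3, ranked by its smaller read share, joined TRAV3N-3 to TRAJ13 without insertion, with 227 reads in thymus and 1661 in spleen.
TRAV3N-3 with TRAJ13, both: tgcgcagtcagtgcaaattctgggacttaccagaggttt
TRAV10D with TRAJ39, both: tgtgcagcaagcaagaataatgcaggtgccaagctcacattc
The TRAV10 counterpart had 144 and 246 reads.

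Junctions of the families were compared by insertion, trimming and length, of which insertion alone was tested. Of productive members, 33.2% in thymus and 41.5% in spleen had no inserted nucleotide, beside 31.4% and 40.8% of the other TCRα clonotypes. The aligned V end ran past the germline end in 22.2% and 24.3% of productive members, and such bases were not counted as inserted. The test was passed by TRAV10 in spleen alone, where 43 of 148 (29.1%) lacked an insertion (Fisher's exact test, adjusted p = 0.0462). Its adjusted p was 0.0588 after merging near neighbours and 0.0540 at equal reads. TRAV8 had the largest shares, 40.3% and 50.3%, with adjusted p = 0.157 and 0.102 in the exact test. TRAV8 also lost most V bases, 3.32 ± 2.83 (SD over 124 clonotypes) in thymus and 2.47 ± 2.43 (169) in spleen, and TRAV10 fewest, 1.41 ± 1.72 (125) and 1.28 ± 1.73 (148). The V end was untrimmed, ends aligned past the germline end included, in 24.2% and 31.4% of productive TRAV8 clonotypes. For TRAV5 these shares were 42.7% and 46.5%.

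TRAV8 had the shortest productive CDR3, with a mean of 38.3 ± 4.21 nucleotides in thymus and 38.3 ± 4.12 in spleen (SD over clonotypes). TRAV4 followed with 39.1 ± 3.63 and 39.2 ± 5.40, and the other families lay between 39.9 and 40.7. The other TCRα clonotypes averaged 40.9 ± 4.94 and 40.8 ± 4.80. In TRAV5 the commonest length in both tissues was 42 nucleotides, in 35.98% and 31.6% of productive clonotypes, whereas in TRAV3 and TRAV4 it was 39. The means differ by less than the spread within any family.

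**Figure D5:**
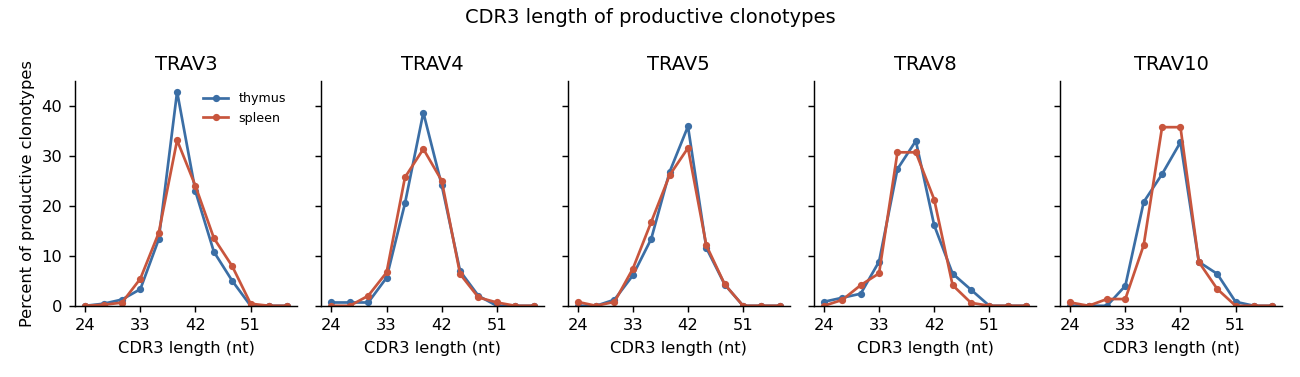
Distribution of CDR3 length in nucleotides for productive clonotypes of each V family in thymus and spleen, as percent of the family's productive clonotypes, between 24 and 57 nucleotides. TRAV3 and TRAV4 peak at 39 nucleotides and TRAV5 at 42, with the thymus and spleen curves of a family close together; 4 longer clonotypes are not drawn.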

How the data were processed

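TCR transcripts of 2 libraries, 1 per tissue, were analysed. The authors assembled reads into clonotypes with MiXCR. The deposited tables give each clonotype's read count, not normalized, together with a fraction relative to the summed reads of both chains and a minimum base quality score over the CDR3. The MiXCR gene library and filters are not given in the sources used here. Only counts entered the results. The fraction and the score served to check the tables.

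Clonotypes were TCRα where the first J hit was a TRAJ gene, and their family was that of the first-listed V gene. Members, lists and grouping were chosen with earlier results of these data known. Member V genes were named from those with at least 20 clonotypes and from the tied pairs, not all of them. TRAJ genes were named from the 3 leading partners of each family and from the 5′ joints of the TRAV3 pair. Clonotypes shown were the leading productive ones of each family, the leading non-productive one of the 5 families and some leading shared ones. The 4 TRAV3 clonotypes that encode 1 protein were also shown. Inserted nucleotides were those between the aligned V and J ends, and bases aligned past a germline end counted as V or J. Shares have Wilson 95% intervals. Families were tested within a library by Fisher's exact test, two-sided, with Benjamini-Hochberg adjustment, 36 tests over 3 measures, and the difference of a family's effect between libraries by Zelen's exact test of equal odds ratios, two-sided. The tests and merging were tested on simulated data. Coordinates and V ends came from GENCODE for GRCm38. Python 3.11.15, pandas 2.3.3, scipy 1.17.1 and matplotlib 3.10.9 were used. Alternatives were minimum reads of 2 or 10, merging of near neighbours, ties left out, equal reads, weighting by reads, productive clonotypes, other rules for sharing and a 5′ stretch from TRAJ40. The other experiments were not analysed here.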

Additional observations from a re-analysis of the deposited data

Results flagged for a closer look

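The share of TRAV3 clonotypes joined to TRAJ45 and upstream differed between the libraries in its relation to the other TCRα clonotypes: it was lower by 4.49 percentage points in thymus (a difference of -4.49) and higher by 4.25 in spleen. The difference between the 2 relations was 0.73 in log odds (SE 0.21, Zelen's exact test of equal odds ratios, adjusted p = 0.00214 over the 6 tests of the measure). It was the single one of 18 such tests to pass, and it takes clonotypes as independent in 1 library per tissue. Besides, 1 spleen clonotype with a member V gene was joined to a TRDJ gene, in 1 read, which is under the 3 reads taken as the floor.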

How the results depend on the processing

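Of 172 recomputed main values under 12 alternatives, 145 kept their direction, call and limits; 2 of the alternatives, leaving out the TRAV8D-2 clonotype with TRAJ31 and leaving out all tied V genes, were chosen after seeing the data. No paired analysis was possible because there was 1 library per tissue. Leaving out all ties removed the tied D copies and gave 19.95% of TCRα clonotypes in thymus and 18.3% in spleen, 17.5% and 17.02% of reads, 73 and 68 shared members, 2 V genes lower in spleen by clonotypes, and a 5′ TRAJ difference between J-proximal and D and N copies of 15.2 points in spleen. Productive clonotypes alone gave 15.6% and 17.7% of reads, and without the TRAV8D-2 clonotype 16.5% and 18.2%. The thymus clonotype of 98095 reads outside the 5 families stayed in both thymus totals. With the 5′ stretch from TRAJ40 the difference between copies was 27.2 points in thymus and 18.1 in spleen. Weighted by reads, the productive share of the 5 families differed from the others by -14.1 points in thymus and -4.63 in spleen. The 5′ TRAJ difference of the 5 families in spleen lost its call among productive clonotypes (2.42 points), from TRAJ40 (0.52) and without ties (0.22). Member V genes lower in spleen by clonotypes numbered 3 with at least 2 reads and 3 with equal reads. The share over all TRAV genes was not recomputed for these counts or for the 2 without ties. Sharing was 66 in both directions by CDR3, V and J, and 313 and 357 by CDR3 protein.

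Differences from the other clonotypes that had passed no test changed sign as follows, in points. In productive share, TRAV4 in thymus was at -3.65 by reads, and TRAV5 at -1.22 by reads and -0.90 without ties. In 5′ TRAJ, TRAV4 in spleen was at -0.71 among productive clonotypes and -0.94 from TRAJ40. In clonotypes without insertion in thymus, TRAV3 was at -0.47 with at least 2 reads, -1.08 with at least 10 and -0.00026 without ties, TRAV4, TRAV5 and TRAV10 were at -1.80, 2.70 and -0.41 without ties, and TRAV5 at 3.07 by reads. In spleen the same measure by reads was -0.17 for the 5 families, 1.10 for TRAV3, -3.46 for TRAV4 and -4.86 for TRAV5, and without ties -0.029 for the 5 families, 2.903 for TRAV3 and -2.75 for TRAV5. The causes were not tested.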
